A study of Mus musculus with 30 samples.

Results

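The genes described here are 10 ligands and enzymes through which tumor cells and their surroundings hold lymphocytes and phagocytes in check. They were chosen by gene symbol, 10 of the 48440 genes in the count table, with earlier results of these data known. They are the B7 family ligands Cd274 (PD-L1), Pdcd1lg2 (PD-L2), Cd276 (B7-H3), Vtcn1 (B7-H4) and Vsir (VISTA), the galectin Lgals9, the phagocyte signal Cd47, the adenosine enzymes Entpd1 (CD39) and Nt5e (CD73), and the tryptophan enzyme Ido1. RNA had been sequenced from 30 fibrosarcomas that grew in C57BL/6 mice after transplantation of 5 primary tumor cell lines, each raised with the carcinogen 3-methylcholanthrene (MCA). MCA943 gave 4 tumors, MCA948 gave 8, MCA969 gave 8, MCA970 gave 6 and MCA972 gave 4. The sample labels give the mouse strain as Ncr1Cre for MCA943 and as Ncr1Cre R26DTA for the other 4 lines. The background is C57BL/6 throughout. The labels do not say whether the strain is that of the host or of the mouse in which the line arose. The study transplanted its lines into C57BL/6 mice and grouped them by the genotype of the mouse given the carcinogen. By that account the label would name the mouse of origin. In Ncr1Cre R26DTA mice, a Cre driven by the Ncr1 promoter switches on a toxin in NKp46+ cells, which are thereby removed. Strain and line cannot be told apart in this design, and each line is a single line from a single primary tumor. Dissociated tumors had been depleted of CD45+ cells on magnetic beads, and RNA came from what remained. The study classes MCA943 and MCA969 as non-sensitive to NK1.1+ cells and MCA948, MCA970 and MCA972 as sensitive. These classes come from transplanting each line into mice with and without an antibody that depletes NK1.1+ cells. Whether any of the 30 tumors grew in mice given that antibody is not stated in the study. The labels of MCA969-W-1D and MCA969-W-2D say sensitive, against the other 6 tumors of that line. The titles also carry a letter, W or a, whose meaning is not given, and 1 MCA972 title has none. The ages of the mice were not given in the sources used here.

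These genes act at separate points. PD-L1 and PD-L2 bind PD-1 on T cells and lower signaling from the antigen receptor, and PD-L1 is induced by interferon gamma in most cell types. B7-H3, B7-H4 and VISTA are relatives of PD-L1 that also lower T cell activity, and VISTA is best known from myeloid cells. Galectin-9 binds TIM-3 among other glycoproteins, and CD47 binds SIRP alpha on macrophages and restrains phagocytosis. CD39 cuts extracellular ATP and ADP to AMP, CD73 cuts AMP to adenosine, and adenosine acts on receptors of lymphocytes and other cells, so that both enzymes serve one pathway in sequence. IDO1 starts the breakdown of tryptophan to kynurenine and is also induced by interferon gamma. CD39 is abundant on endothelial cells, and CD73 is a standard marker of mesenchymal stromal cells.

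All 10 genes are protein-coding, and their positions are those of GENCODE on GRCm38. Cd274 (ENSMUSG00000016496) lies at chr19:29367455-29388095 on the plus strand, with Pdcd1lg2 (ENSMUSG00000016498) beside it at chr19:29410919-29471161 on the same strand. Entpd1 (ENSMUSG00000048120) lies on the same chromosome at chr19:40612366-40741602. Cd276 (ENSMUSG00000035914) is at chr9:58524298-58555437 on the minus strand and Nt5e (ENSMUSG00000032420) at chr9:88327197-88372092 on the plus strand. Vtcn1 (ENSMUSG00000051076) is at chr3:100825459-100896922, Vsir (ENSMUSG00000020101) at chr10:60346851-60372684 and Cd47 (ENSMUSG00000055447) at chr16:49800533-49915010, all on the plus strand. Lgals9 (ENSMUSG00000001123) is at chr11:78962974-78984946 and Ido1 (ENSMUSG00000031551) at chr8:24584136-24597009, both on the minus strand. The strand setting of the counting was not given in the sources used here, so reads of Vsir and of Cdh23 on the opposite strand cannot be told apart where they overlap. Cdh23 itself was counted at 0.684 to 2.74 CPM (counts scaled to the size of the library) on average over the lines, below Vsir in each.

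Because Cd274 and Ido1 are known interferon targets, the RefSeq promoter windows, from 250 bases before to 50 after the start on GRCm38.p6, were searched on both strands for 3 short elements. These were the interferon gamma-activated site TTCNNNGAA, the core of the interferon-stimulated response element GAAANNGAA and the hypoxia element ACGTG. Windows were at hand for 9 members, of which Cd47 and Entpd1 have 2 each. The response element core stood in Cd274 once and in Lgals9 in 2 places, in no other member's window, and in 8.56% of all 32851 promoters of this length. The hypoxia element stood in Cd274 and Cd47 and in 19.6% of all promoters. The activated site stood in none of the members' windows and in 8.30% of all promoters. No site found overlapped another. The windows of Cd274 and Lgals9 are shown because the levels of both genes followed interferon-induced genes or vessel markers below. That of Nt5e is shown because this gene was lowest in MCA943, where Cd274 and Lgals9 had their highest means. Capitals mark the sites, all on the strand opposite to the element as spelled above.

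Cd274, chr19:29367188-29367487, plus strand: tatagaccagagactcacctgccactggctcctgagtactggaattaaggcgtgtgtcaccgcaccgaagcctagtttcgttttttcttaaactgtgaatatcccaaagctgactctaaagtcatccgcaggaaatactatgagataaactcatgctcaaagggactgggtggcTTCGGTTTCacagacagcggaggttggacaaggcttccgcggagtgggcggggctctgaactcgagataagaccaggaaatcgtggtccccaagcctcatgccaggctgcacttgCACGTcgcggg
Lgals9, chr11:78984875-78985174, minus strand: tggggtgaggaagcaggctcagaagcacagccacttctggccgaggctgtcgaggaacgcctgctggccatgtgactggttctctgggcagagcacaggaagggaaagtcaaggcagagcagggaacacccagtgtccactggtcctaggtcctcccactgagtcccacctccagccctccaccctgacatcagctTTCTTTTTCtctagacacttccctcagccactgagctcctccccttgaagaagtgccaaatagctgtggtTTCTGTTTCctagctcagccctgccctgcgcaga
Nt5e, chr9:88327359-88327658, plus strand: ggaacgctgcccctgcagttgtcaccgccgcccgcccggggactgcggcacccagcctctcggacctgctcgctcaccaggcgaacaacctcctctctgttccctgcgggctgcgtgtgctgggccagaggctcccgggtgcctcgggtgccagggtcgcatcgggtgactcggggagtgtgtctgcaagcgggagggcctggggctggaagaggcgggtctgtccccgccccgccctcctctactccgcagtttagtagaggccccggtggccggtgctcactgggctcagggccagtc

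Each tumor had between 27745104 and 46537062 counts on genes, with a median of 35039383. A gene with 0 counts in a tumor could hold up to 3 counts by counting error alone, which is between 0.0602 and 0.113 CPM after TMM normalization over the tumors. Library numbers, not a run label, put the libraries in 3 blocks that followed the lines, called runs here. Run 1 held 6 MCA969 and 4 MCA972 tumors, and run 2 held 2 MCA948, 2 MCA969 and 6 MCA970 tumors. Run 3 held 4 MCA943 and 6 MCA948 tumors. Whether these blocks were batches of preparation or sequencing was not given in the sources used here. Of the tumors of MCA969, W-2D stood apart, being the lowest of its line for 28.3% and the highest for 26.2% of the 16862 genes past the filter on low counts. All 10 fibroblast or sarcoma markers passed that filter, with a summed level between 14690 and 76390 CPM. The 23 leukocyte markers summed to between 26.2 and 370.7 CPM, and Ncr1, of NK cells, had 0 counts in the 4 MCA972 tumors, where the other 22 were detected. The 10 endothelial markers summed to between 28.3 and 569 CPM, were all detected in every line, and were highest in MCA970. Of 6 epithelial markers, 4 passed the filter, and among them Krt8 and Krt18 were at 385 and 255 CPM on average in MCA969. Cdh1 was lower in MCA969 than in MCA970 and MCA972 (log2 fold changes -1.36 and -1.47, edgeR adjusted p = 0.028 and 0.0327). Epcam, Krt8 and Krt18 were higher in both comparisons. In bulk RNA of this kind, fewer cells of a type and less RNA per cell cannot be told apart.

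The 8 members past the filter differed between lines, and MCA943 had the highest mean for 7 of them. Cd274, Cd276, Vsir, Lgals9, Cd47, Entpd1 and Ido1 had their highest means in MCA943, while Nt5e was lowest there and was 26.4-fold higher in MCA972. MCA948 had the lowest mean for Cd276, Lgals9, Cd47, Entpd1 and Ido1, and of these only Lgals9 was called different from the next line. Ido1 had at most 4 counts a tumor in MCA948. The fibroblast or sarcoma markers were also called higher in MCA943, mainly against MCA948 and MCA969. Against MCA948, 8 of 10 were called higher and 0 lower (median log2 fold change 1.96), beside 29.0% of all genes called. Against MCA969, 5 of 10 were called higher, beside 27.0% of all genes called. Against MCA970 and MCA972, 3 and 2 of 10 were called higher, near the 27.3% and 25.6% of all genes called. These markers summed to between 64640 and 76390 CPM in MCA943 and to between 14690 and 21330 CPM in MCA948. Their part in the members' differences was not tested. Pdcd1lg2 and Vtcn1 did not pass the filter and were at or near the limit of detection. Differences were tested with edgeR over all 30 tumors and called where the adjusted p was under 0.05 and the log2 fold change was 1 or more in either direction, with the standard error (SE) derived from the F statistic. Of 80 tests, 8 members in each of 10 comparisons of lines, 45 were called, beside 17.6% to 29.4% of all genes by comparison. These comparisons share tumors and are not independent of each other.

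**Figure D1:**
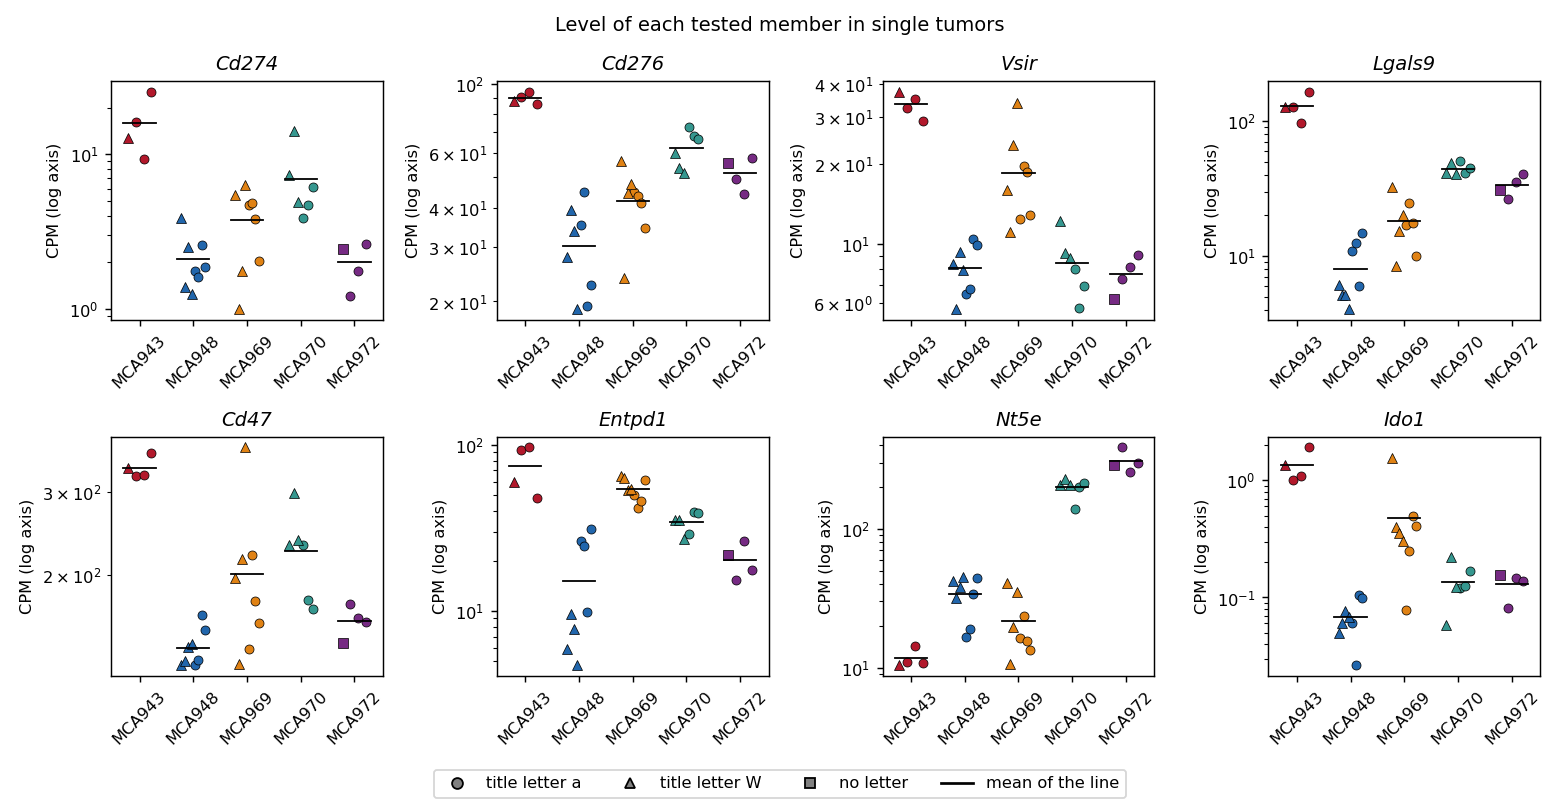
CPM of the 8 members past the filter in each of the 30 tumors, on log axes, by tumor line. Circles are tumors with title letter a, triangles letter W, the square the tumor with no letter, and bars the means of lines. MCA943 has the highest mean in all panels but Nt5e, where MCA972 has the highest at 308 CPM.

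Cd274, the ligand of PD-1, was at 12.8, 16.2, 9.34 and 25.4 CPM in the 4 MCA943 tumors (mean 15.9 ± 6.90, SD). The 6 MCA970 tumors ranged from 3.89 to 14.3 CPM with a median of 5.53, and the 8 MCA969 tumors from 0.990 to 6.33 CPM with a median of 4.25. The 8 MCA948 tumors ranged from 1.25 to 3.89 CPM (median 1.81), and the 4 MCA972 tumors were at 1.20, 1.76, 2.42 and 2.65 CPM. All MCA943 tumors thus lay above all MCA948, MCA969 and MCA972 tumors, whereas MCA970-W-2D reached into the range of MCA943. The mean of MCA943 was 7.94-fold that of MCA972 (log2 fold change 2.99, SE 0.49, edgeR adjusted p = 6.8e-06) and 2.31-fold that of MCA970 (1.22, SE 0.40, adjusted p = 0.0105). The second of these calls was lost without MCA943-a-R (0.90, edgeR adjusted p = 0.0757). It was also lost with the library run (1.32, adjusted p = 0.124) or the index set (1.22, adjusted p = 0.0614) as a covariate, at a fold change as large or larger. MCA970 was in turn above MCA948 (1.70, SE 0.35) and MCA972 (1.77, SE 0.45). Within run 2, which held both lines, MCA948 minus MCA970 was -1.61 and was not called (edgeR adjusted p = 0.0715), with 2 MCA948 tumors. MCA948 and MCA972 were not called different (0.07, SE 0.41, adjusted p = 0.89).

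Cd276, known as B7-H3 and often high in tumors of mesenchymal origin, was the most abundant B7 family member in every line. Per length it stood between 31.5 TPM (scaled by exon length and library size) in MCA948 and 79.5 TPM in MCA943, against 12.9 TPM for Cd274 in MCA943. The 4 MCA943 tumors, at 87.7, 90.8, 94.0 and 85.9 CPM, were closely spaced and above every other tumor. The 8 MCA948 tumors ranged from 18.9 to 44.8 CPM with a median of 30.6. The gene was called higher in MCA943 than in MCA948 (log2 fold change 1.57, SE 0.18, edgeR adjusted p = 1.52e-08) and MCA969 (1.09, SE 0.19), and higher in MCA970 than in MCA948 (1.04, SE 0.17). The last of these was just past the fold threshold and was lost when any of MCA948-a-2G, MCA948-a-R, MCA948-W-2G or MCA970-a-1D was left out, and with the endothelial score as a covariate. The call against MCA969 was lost with the run (0.49) or the index set (0.97) as a covariate.

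Vsir, which encodes VISTA, was at 37.5, 32.7, 35.3 and 29.2 CPM in MCA943. In MCA969 it ranged from 11.1 to 34.0 CPM with a median of 17.3, the highest value being that of MCA969-WR. The remaining 3 lines were not called different from each other, with means of 8.10, 8.49 and 7.69 CPM in MCA948, MCA970 and MCA972 and log2 fold changes of at most 0.14 (SE 0.24). Vsir was called higher in MCA969 than in MCA948 (1.19, SE 0.19, edgeR adjusted p = 2.62e-06), MCA970 (1.12, SE 0.20) and MCA972 (1.27, SE 0.24). The study had already listed Vsir, from these same tumors, among genes higher in non-sensitive tumors, so such calls repeat its finding. The comparison with MCA972 was made within run 1 too, where it was also called. The calls against MCA948 and MCA970 were lost with the run as a covariate and within run 2, and that against MCA970 was also lost without MCA969-WR.

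Lgals9, the gene of galectin-9, had the widest range among the checkpoint ligands. It was at 128, 126.8, 96.5 and 164 CPM in MCA943 and between 4.02 and 14.7 CPM in the 8 MCA948 tumors (median 6.01), a 16-fold difference of the means (log2 fold change 4.0, SE 0.29, edgeR adjusted p = 1.24e-12). The tumors of MCA970 lay between 40.3 and 50.3 CPM (median 43.2), those of MCA972 between 26.6 and 40.6 CPM (median 33.2) and those of MCA969 between 8.48 and 32.7 CPM (median 17.2). MCA943 did not overlap with any other line. In the order MCA943, MCA970, MCA972, MCA969, MCA948, the step from MCA970 to MCA972 was 0.41 (SE 0.31, adjusted p = 0.287) and was not called, nor was the step from MCA972 to MCA969 at 0.87 (SE 0.29, adjusted p = 0.0118). The call between MCA969 and MCA948 (1.18, SE 0.25, adjusted p = 0.000177) was lost in 3 settings that left much of the difference. MCA948 minus MCA969 was -1.0 with the run as a covariate (edgeR adjusted p = 0.138), -1.0 within run 2 (0.225), and -0.97 with the endothelial score (1.19e-05), where it missed the fold threshold alone. The call between MCA969 and MCA970 was lost within run 2 at -1.10 (0.0776).

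Cd47 was the most abundant of the 10 genes per length in all lines but MCA972, with means from 89.3 TPM in MCA948 to 188 TPM in MCA943. Its line means spanned 2.42-fold, the narrowest span of the 8 members. The MCA943 tumors were at 338, 325, 327 and 364 CPM, and the MCA948 tumors between 128 and 164 CPM with a median of 135.6. Outside MCA943 only MCA969-WR, at 374 CPM, reached this level. Cd47 was called in 2 comparisons, MCA943 against MCA948 (log2 fold change 1.28, SE 0.18, edgeR adjusted p = 2.51e-07) and MCA943 against MCA972 (1.09, SE 0.21). Sirpa, the gene of its receptor, was at 6.99 ± 2.5 CPM (SD, n = 8) in MCA948 and at means of 40.1 to 72.5 CPM in the other lines, and was called lower in MCA948 than in each of them.

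Pdcd1lg2 had 59 counts in all over the 30 tumors, with 0 to 8 counts in each and a highest value of 0.190 CPM. Its neighbor Cd274 had 5718 counts in the same libraries. Vtcn1 had 45 counts in all. It had 0 counts in every MCA943 and MCA948 tumor, which allows levels of up to 0.113 and 0.101 CPM in a single tumor, and at most 0.181 CPM in the other lines. Levels this close to the limit do not allow lines to be ranked for these 2 genes.

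The adenosine enzymes ordered the lines in different ways. Nt5e, which makes adenosine from AMP, was at 385.6, 259, 289 and 299 CPM in MCA972 and between 140 and 230.2 CPM in MCA970 (median 207). It was between 16.5 and 44.8 CPM in MCA948 (median 36.1), between 10.7 and 40.8 CPM in MCA969 (median 17.9), and at 10.5, 11.1, 14.3 and 10.9 CPM in MCA943. No tumor of MCA970 or MCA972 overlapped with a tumor of the other 3 lines. MCA972 exceeded MCA943 by 4.72 on the log2 scale (SE 0.37, edgeR adjusted p = 2.29e-11), the largest difference of any member, and MCA970 exceeded it by 4.10 (SE 0.35). Against MCA948, MCA972 was 9.12-fold and MCA970 was 5.92-fold higher, and both were called. MCA970 and MCA972 were not called different (0.62, SE 0.29, adjusted p = 0.073), although their tumors did not overlap. Nt5e was called lower in MCA943 than in MCA948 (1.53, SE 0.30, adjusted p = 6.87e-05).

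Entpd1, which makes AMP from ATP and ADP, was at 59.8, 92.4, 96.2 and 47.6 CPM in MCA943 and between 41.9 and 65.0 CPM in MCA969 (median 53.5). It was between 27.0 and 39.6 CPM in MCA970 (median 35.2) and was at 15.4, 26.2, 21.7 and 17.5 CPM in MCA972. MCA948 was the lowest line on average and the most spread, from 4.73 to 31.1 CPM with a median of 9.72. MCA943 and MCA969 were not called different (log2 fold change 0.45, SE 0.34, edgeR adjusted p = 0.252). Both were called higher than MCA948 (2.30, SE 0.33 and 1.85, SE 0.29) and MCA972 (1.87, SE 0.41 and 1.42, SE 0.37). MCA969 and MCA970 were not called different (0.66, SE 0.31, adjusted p = 0.0632), but were with the endothelial score as a covariate (1.06, adjusted p = 0.0005). MCA943 was also called higher than MCA970 (1.12, SE 0.36, adjusted p = 0.00854), a call that was lost without MCA943-a-1G. MCA970 exceeded MCA948 (1.18, SE 0.31, adjusted p = 0.00115), a call that was lost with the run, the index set or the endothelial score as a covariate and within run 2. In the annotation 3 genes on the same strand overlap Entpd1, and reads shared with them were not assessed.

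**Figure D2:**
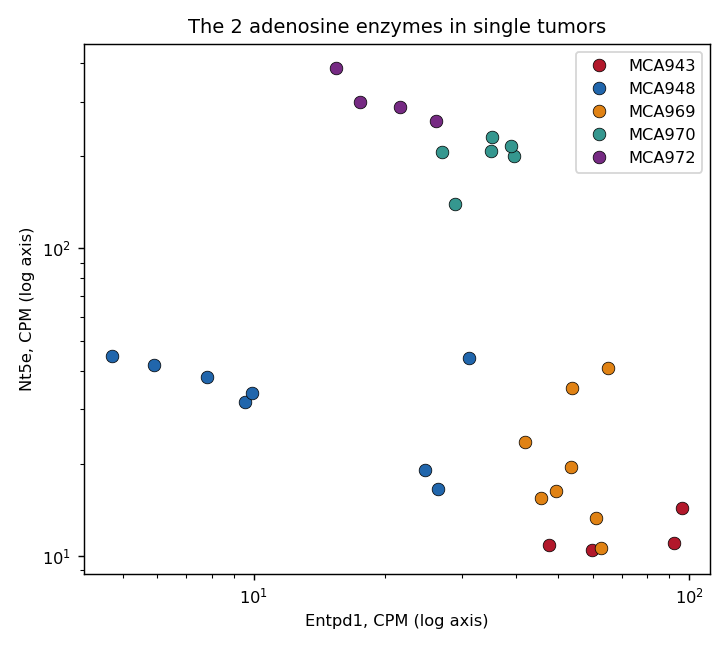
Nt5e against Entpd1 in CPM, both on log axes, with 1 point per tumor colored by line. MCA970 and MCA972 tumors hold Nt5e at 140 CPM or more, MCA943 and MCA969 tumors hold Entpd1 at 41.9 CPM or more with little Nt5e, and MCA948 tumors spread along Entpd1.

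Ido1 was low throughout, with 401 counts over all tumors. In MCA943 it was at 1.36, 1.01, 1.10 and 1.91 CPM, from 29 to 78 counts a tumor. In MCA969 it ranged from 0.0786 to 1.55 CPM with a median of 0.381, and the highest tumor, MCA969-W-1D, was followed by a tumor at 0.497 CPM. In the other 3 lines each tumor had at most 7 counts. Ido1 passed the filter on low counts through the lines where it was high, so that a difference was built into its passing. It was called higher in both than in MCA948, MCA970 and MCA972, by 1.82 to 4.25 on the log2 scale. MCA943 also exceeded MCA969 (1.47, SE 0.38, edgeR adjusted p = 0.0013), a call that was lost with the run as a covariate (1.25, adjusted p = 0.218).

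The share of the members called was set against that of all 16862 genes tested. Between MCA943 and MCA948 all 8 members were called, 7 higher in MCA943, beside 29.0% of all genes. Ido1 is among them and gave 7 of the 45 calls, with the limit that it passed the filter through its high lines. MCA943 differed from MCA972 in 7 members (25.6% of all genes), from MCA970 in 6 (27.3%) and from MCA969 in 4 (27.0%). MCA948 differed from MCA970 in 5 (29.4%), from MCA969 in 4 (20.8%) and from MCA972 in 2, Lgals9 and Nt5e (26.8%). MCA969 differed from MCA970 in 4 (21.4%) and from MCA972 in 4 (20.6%), and MCA970 from MCA972 in Cd274 alone (17.6%). The same 45 calls were made by DESeq2, with DESeq2 size factors, with the leukocyte score as a covariate, and without MCA969-W-1D and MCA969-W-2D. The leukocyte markers summed to medians of 113 CPM in MCA943, 90.3 in MCA948, 36.2 in MCA969, 64.2 in MCA970 and 57.5 in MCA972. With the run as a covariate 38 of the 45 calls remained, with 3 others added. MCA943 shared no run with MCA969, MCA970 or MCA972, so that the run enters those comparisons only through the lines that were in 2 runs.

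**Figure D3:**
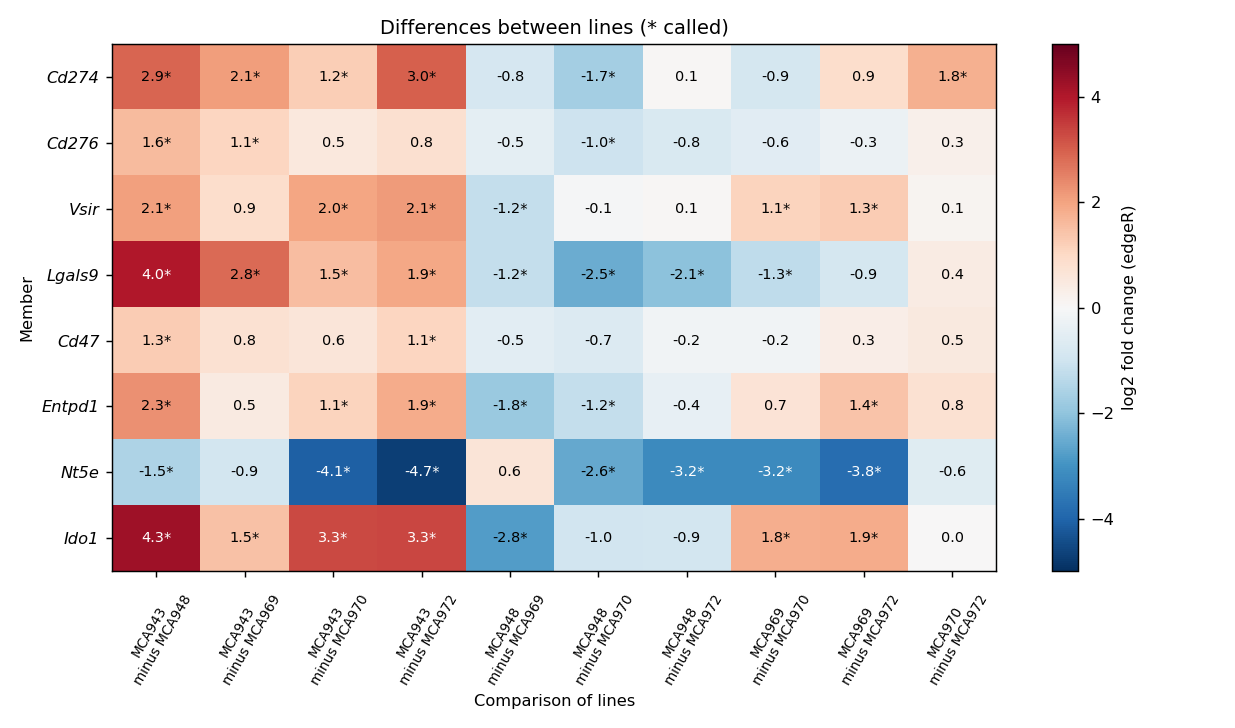
Log2 fold changes of the 8 tested members in the 10 comparisons of lines, red where the first line named is higher and blue where it is lower, with a star for a call. The 4 columns with MCA943 are red for all members but Nt5e, which reaches -4.7 against MCA972.

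Per length, the members together came to 521 TPM in MCA943, 383 in MCA970, 363 in MCA972, 262 in MCA969 and 164 in MCA948. Cd47 made up 54.6% of this sum in MCA948 and 29.0% in MCA972. Lgals9 held 33.9% in MCA943 and 7.79% in MCA948. Nt5e was the largest component in MCA972 at 35.2% and came to 20.5% in MCA970 but to 0.779% in MCA943. Cd276 took between 15.1% and 19.2% in all 5 lines, the steadiest share among the abundant members. These shares describe line means and were not tested.

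**Figure D4:**
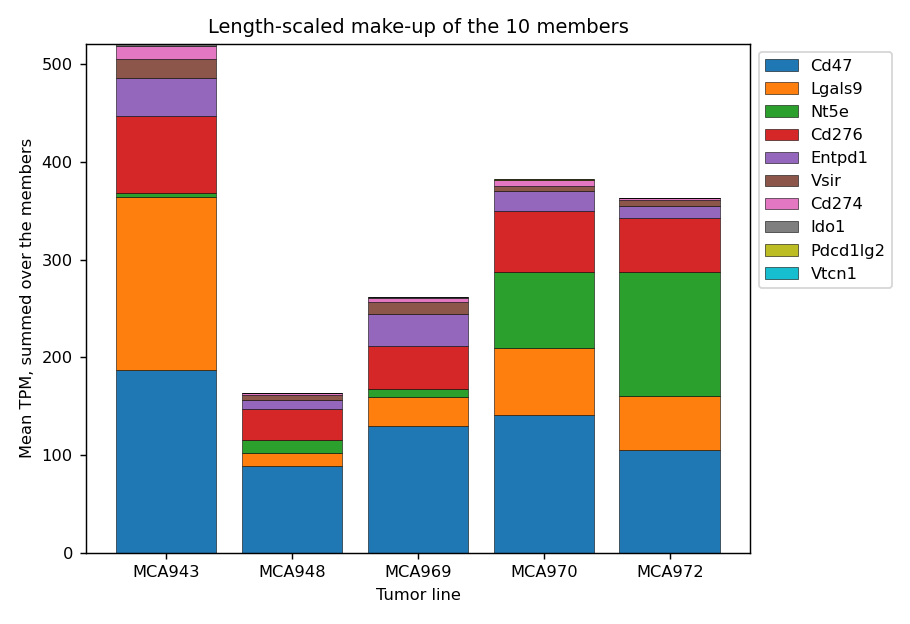
Mean TPM of the 10 members, stacked for each tumor line, with 1 color per gene. Cd47 is the largest block in all lines but MCA972, where Nt5e is, and the Lgals9 block is large in MCA943.

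NK cell sensitivity is a property of the line, so the lines were compared by their means. Both non-sensitive lines had higher mean log2 CPM than all 3 sensitive lines for Vsir, Entpd1 and Ido1, as did 9.11% of all genes tested, and lower means for Nt5e, as did 7.62%. Ido1 had passed the filter through these same lines, with at most 7 counts a tumor in the sensitive lines, so its place here was built in. The study had listed Vsir, from these same tumors, among genes higher in non-sensitive tumors, so its place was built in as well. The difference of non-sensitive minus sensitive was 1.6 for Vsir, 1.62 for Entpd1, 2.25 for Ido1 and -3.03 for Nt5e on the log2 scale. The two-sided exact permutation p over the 5 line means was 0.1 for Vsir and Ido1, the smallest that 5 lines allow, and 0.2 for Entpd1 and Nt5e. It was 0.3 for Cd274 and Cd47 and 0.6 for Cd276 and Lgals9. Entpd1 was the one member for which single tumors did not overlap either: the 12 tumors of MCA943 and MCA969 were at 41.9 CPM or more and the 18 others at 39.6 CPM or less. The tumors on either side of this gap were of MCA969 and MCA970, lines not called different for Entpd1 (0.66, SE 0.31, edgeR adjusted p = 0.0632). Such a gap, with the non-sensitive tumors on top, was found for 0.777% of all genes, and the opposite gap for 0.504%. MCA969-W-1D and MCA969-W-2D, whose labels say sensitive, were at 65.0 and 62.8 CPM for Entpd1, on the side of their line. For Nt5e the tumors of MCA969 overlapped with those of MCA948.

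The tumors were also compared by the letter in their titles, within the 4 lines that have both letters. None of the 8 members was called between a and W at an edgeR adjusted p under 0.05, where 0.272% of all genes were. Before adjustment 2 members were under 0.05, Entpd1 (0.53, SE 0.22, edgeR adjusted p = 0.585) and Nt5e (-0.38, SE 0.18, edgeR adjusted p = 0.654). DESeq2 called none either. A difference in the letter effect between MCA948, MCA969 and MCA970 was called for no member and for 0.0946% of all genes. Entpd1 came closest (edgeR adjusted p = 0.063), and was called when MCA948-a-2G (0.00127) or MCA970-W-2D (0.0364) was left out.

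In MCA948 alone, Entpd1 was at 5.89, 7.82, 9.54 and 4.73 CPM in the 4 W tumors and at 9.91, 31.1, 26.5 and 24.7 CPM in the 4 a tumors, so that the letters did not overlap. The difference of a minus W was 1.70 (SE 0.26, edgeR adjusted p = 0.00606), and 0.410% of all genes were called in this comparison. It was -0.26 (SE 0.25) in MCA969 and 0.13 (SE 0.29) in MCA970. The endothelial score, the mean log2 CPM of the 10 vessel markers, was 1.90, 4.99, 4.03 and 4.27 in the a tumors and 1.19, 2.41, 3.16 and 1.07 in the W tumors, listed in the same sequence of tumors as the Entpd1 values, and these ranges overlapped. Cdh5, the cadherin of vessels, was at 46.3 ± 44.3 CPM (SD, n = 8) in MCA948, and the list of 10 markers summed to between 28.3 and 515 CPM over these tumors. With the endothelial score as a covariate the Entpd1 difference was 1.10 (SE 0.26, adjusted p = 0.194) and was no longer called. In that fit 3 of 15853 genes were called, in place of 65 without the covariate. With the run as a covariate the Entpd1 difference was 1.87 (SE 0.31, adjusted p = 0.0136), 2 of the 4 a tumors being in run 2 and all other tumors in run 3. Lgals9 had a difference of 1.10 (SE 0.32, adjusted p = 0.133) in the same tumors and was called when MCA948-a-2G was left out (1.3, SE 0.31, adjusted p = 0.0313), where 368 of 15813 genes were called in place of 65 of 15853.

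How the members varied between tumors of a line was related to 3 marker scores, each the mean log2 CPM of its list, in the 3 lines with at least 6 tumors. Of 72 relations, 3 passed a Benjamini-Hochberg adjusted p of 0.05 by Pearson's r with exact permutation, and none by Spearman's rho. Entpd1 rose with the endothelial score in MCA948 (r = 0.96, exact p = 0.000496, adjusted 0.0179, rho = 0.90, exact p = 0.00456, adjusted 0.109). Without the 2 tumors farthest from the median score r was 0.91, and within run 3 it was 0.96 over 6 tumors. In MCA969 the same relation was -0.39 (exact p = 0.338) and in MCA970 it was 0.61 (exact p = 0.142). The sign in MCA969 depended on the tumors kept, with r at 0.25 without the 2 farthest and at -0.73 within run 1 over 6 tumors. Lgals9 rose with the endothelial score in MCA969 (r = 0.94, exact p = 0.00114, adjusted 0.0274, rho = 0.90, exact p = 0.00456, adjusted 0.109), with r at 0.89 without the 2 farthest tumors and at 0.97 within run 1. It was 0.88 in MCA948 (exact p = 0.00742, adjusted 0.1). In MCA970 it was 0.68 (exact p = 0.118, adjusted 0.472), and -0.17 without the 2 farthest tumors. Whether the slopes differ between lines was not tested.

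**Figure D5:**
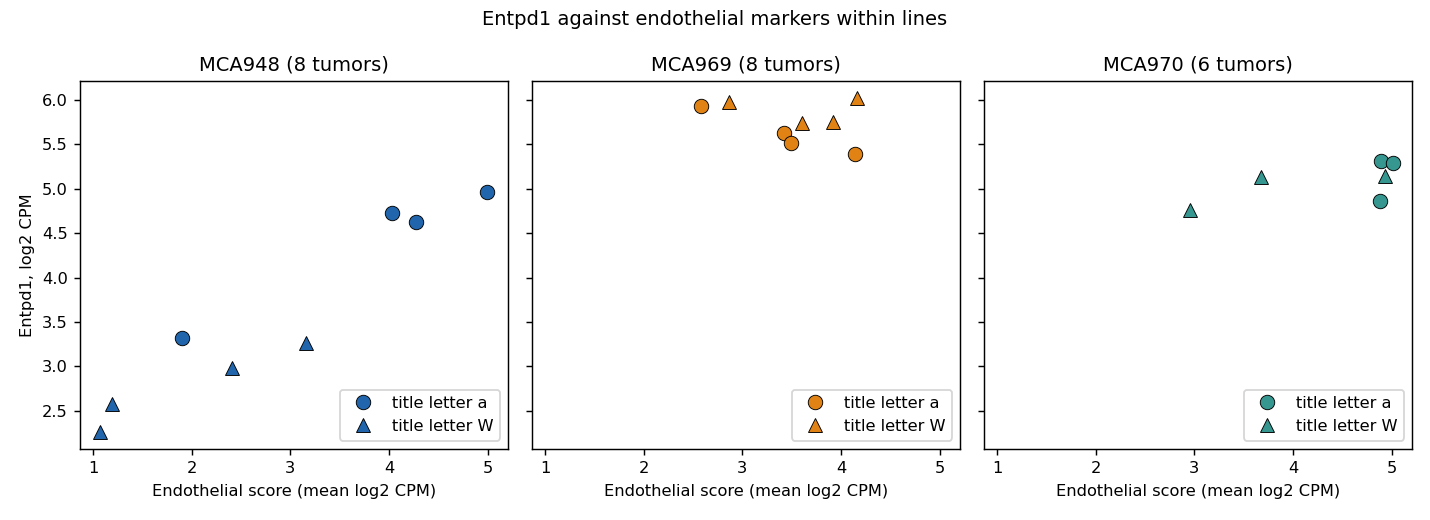
Log2 CPM of Entpd1 against the endothelial score (mean log2 CPM of 10 vessel markers) in the tumors of MCA948, MCA969 and MCA970, with circles for title letter a and triangles for W. The points rise together in MCA948 (r = 0.96) and lie high without a rise in MCA969 (r = -0.39).

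Cd274 rose with the interferon response score in MCA969 (r = 0.96, exact p = 0.000397, adjusted 0.0179, rho = 0.86, exact p = 0.0107, adjusted 0.193) and was at r = 0.98 in MCA970 (exact p = 0.00278, adjusted 0.05, rho = 0.94, exact p = 0.0167, adjusted 0.24), on the threshold. Without the 2 farthest tumors r was 0.89 in both. In MCA948, where interferon-induced genes were lowest, r was 0.67 (exact p = 0.0706) and turned to -0.20 without the 2 farthest tumors, so that it rests on those. No member passed the adjusted threshold against the leukocyte score in any of these lines.

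By the mean of Pearson's r over the tumors of MCA948, MCA969 and MCA970, the 3 genes most like Cd274 among the 16862 were Stat2 (0.91), Irgm1 (0.905) and Ifit3 (0.90). Those most like Lgals9 were Ablim3 (0.91), Ly6c1 (0.91) and Cd36 (0.89). Cd276 varied most like Cd248 (0.92), Rasal2 (0.91) and Plcl1 (0.91), and Cd47 most like Rcor3 (0.93), Pttg1ip (0.93) and Appl2 (0.91). Rcor3 was also among the genes most like Vsir (0.81), after Ddit3 (0.84) and Ticam1 (0.82). Nt5e varied most like Acsbg1 (0.86), Wtip (0.86) and Mroh1 (0.86), Entpd1 most like Ccdc148 (0.83), Has2 (0.76) and Gorasp2 (0.76), and Ido1 most like C4a (0.85), Grasp (0.82) and Pced1b (0.82). These are descriptions over 8, 8 and 6 tumors, chosen as the highest of many.

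Within MCA969, single tumors were at the extreme for several members at once. MCA969-W-2D was the lowest of the 8 tumors for 6 of the 8 members, Cd274, Cd276, Vsir, Lgals9, Cd47 and Nt5e, beside 28.3% of all genes. MCA969-W-1D was the highest for 5 members, Cd276, Lgals9, Nt5e, Entpd1 and Ido1, beside 15.7% of all genes. Both tumors were in run 2, apart from the other 6, and their endothelial scores were 2.86 and 4.16 against a range of 2.58 to 4.14 in run 1. The part of run and vessels in these values was not tested.

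The genes around the members were followed in lists. Of 18 other checkpoint ligands tested, 11 were higher and 0 lower in MCA943 than in MCA948 (median log2 fold change 1.56, against -0.01 over all genes). Against MCA969 the counts were 10 and 2, against MCA970 7 and 1, and against MCA972 9 and 1. Of all genes, 29.0% were called against MCA948, 27.0% against MCA969, 27.3% against MCA970 and 25.6% against MCA972. H2-T23, which encodes the NKG2A ligand Qa-1, was at 155.5 ± 46.1 CPM in MCA943 (SD, n = 4) and at means of 4.34 to 23.4 CPM in the other lines. Lgals1, an abundant galectin, was at 3703 ± 273 CPM in MCA943 and at means of 1772 to 2423 CPM elsewhere. Cd80, chosen after its values were seen, encodes a ligand of CD28 and CTLA-4 that also binds PD-L1 on the same cell. It was at 23.8 ± 2.63 CPM in MCA943 and at means of at most 1.20 CPM in the other lines, and was called higher in MCA943 than in each, by 4.30 (SE 0.34) or more. Checkpoint receptors had 6 of 12 higher and 0 lower in MCA943 than in MCA948, beside 29.0% of all genes called. The leukocyte markers had 8 of 19 higher and 0 lower in the same comparison (median log2 fold change 1.22), and their part in the receptor values was not tested.

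Among 17 other genes of extracellular adenosine tested, 8 were higher and 3 lower in MCA943 than in MCA948 (median log2 fold change 1.44), where 29.0% of all genes were called and 61.2% of those were higher. Enpp1, an ectoenzyme that also makes AMP from ATP, was at 281 ± 23.7 CPM (SD, n = 4) in MCA943, 262 ± 123 in MCA969 and 321 ± 42.5 in MCA972, and at 41.2 ± 15.3 CPM in MCA970 and 15.6 ± 3.39 in MCA948. MCA948, with the lowest mean of Entpd1, also had the lowest of Enpp1, by 1.40 (SE 0.24) or more on the log2 scale. Slc29a1, the nucleoside carrier ENT1, was at 105 ± 12.2 CPM in MCA943 and lowest in MCA970 at 18.5 ± 4.85 CPM. Ahcy, which releases adenosine inside cells, was called lower in MCA970 and MCA972 than in MCA948 and MCA969. The median over the list was near that of all genes in several comparisons, such as -0.07 between MCA970 and MCA972, where 5 genes were higher and 4 lower.

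Of 11 other genes of tryptophan use tested, 3 were higher and 2 lower in MCA943 than in MCA948 (median -0.24), beside 29.0% of all genes called. Ahr, the receptor that kynurenine can activate, was at 2.94 ± 0.539 CPM (SD, n = 4) in MCA943 and at 22.6 ± 5.69 CPM (n = 8) in MCA948. It was called lower in MCA943 than in each other line. Slc7a5, a carrier of tryptophan and other large amino acids, ranged from 96.8 to 206 CPM over the line means and was called in 1 comparison.

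All 16 genes of the interferon response list were higher in MCA943 than in MCA948 (median log2 fold change 4.94) and MCA972 (2.77), 15 than in MCA969 (3.02) and 14 than in MCA970 (2.00). Of all genes, 29.0%, 25.6%, 27.0% and 27.3% were called in these comparisons, in the same order. MCA948 was lower than MCA970 in all 16, beside 29.4% of all genes called. The list summed to between 1627 and 4399 CPM in MCA943, 708 and 1379 in MCA970, 440.5 and 731 in MCA972, 293.5 and 777 in MCA969, and 106 and 216 in MCA948. Cxcl9, a chemokine that interferon gamma induces, was at 341 ± 273 CPM in MCA943 and 0.734 ± 0.597 in MCA948. MCA943 and MCA970 were the highest and the second line both for this list and for Cd274. Of the 16 regulators of PD-L1, 3 were higher and 2 lower in MCA943 than in MCA948, a share near the 29.0% of all genes called. Ifngr1, a chain of the interferon gamma receptor, was at 177 ± 11.5 CPM in MCA943 and at means of 48.2 to 71.6 CPM in the other lines, and was called in all 4 comparisons with MCA943.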

How the data were processed

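Bulk RNA of 30 tumors of 5 lines, depleted of CD45+ cells, was sequenced. Per the submitters' processing notes, reads were aligned with STAR 2.5.3a to GRCm38 and counted on genes with featureCounts 1.5.2. Per the column names, reads carried molecular identifiers and duplicates had been removed. The authors deposited whole counts per gene, without normalization, for 48440 genes, of which 48058 were named through GENCODE release M21. Totals ranged from 27745104 to 46537062 per tumor, and limits from 3 counts cover counting error only. The labels list each tumor as a sample of its own, and p-values measure the spread between these tumors only.

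Lines were taken from the titles, sensitivity from the study, and runs from blocks of library numbers rather than from a label. Counts were normalized by TMM and filtered with filterByExpr by line, which kept 16862 genes. The edgeR quasi-likelihood model (robust) was fitted to all 30 tumors with the line as factor, and p-values were adjusted by Benjamini-Hochberg over all genes tested. SE is the absolute log2 fold change over the square root of F. A score is the mean log2 CPM of the genes of a list past the filter. The letters were compared over 26 tumors with the line in the model, and their effects between lines over 22. Log2 CPM used a prior count of 2. TPM used the deposited gene lengths. Tests over line means and correlations were exact permutation tests, two-sided. The edgeR fits were tested on simulated data.

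The members and lists were chosen with earlier results of these data known. At most 4 genes of a list were named, those with the highest mean CPM among the called ones, and 3 genes per member by likeness. Alternatives were DESeq2, its size factors, no filter on low counts, no fold change threshold, the run, the index set, the leukocyte score and the title code as covariates, single runs, each tumor left out, a prior count of 0.5 and Spearman's rho. The endothelial covariate, all alternatives of the letter effect by line, and leaving out MCA969-W-1D and MCA969-W-2D together were added after seeing the data. Promoter sequences are from RefSeq (GRCm38.p6), with 9 of 10 members matched. Versions were R 4.3.3, edgeR 4.0.16, DESeq2 1.42.0, Python 3.11.15 and scipy 1.17.1.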

Additional observations from a re-analysis of the deposited data

Results flagged for a closer look

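In 5 of 40 sets of tumors of one line, a single tumor stood apart for a member by Dixon's criterion, which chance meets in about 1 of 20 sets. Cd274 was at 14.3 CPM in MCA970-W-2D, against 7.37 CPM in the next tumor. Cd47 was at 373.8 CPM in MCA969-WR, against 219.9 CPM. Ido1 was at 1.55 CPM in MCA969-W-1D, against 0.497 CPM. Nt5e was at 14.3 CPM in MCA943-a-1G, against 11.1 CPM, and was low in MCA970-a-1D at 140 CPM, against 199.6 CPM.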

How the results depend on the processing

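No called difference between lines reversed under any alternative, and DESeq2, its size factors and the leukocyte score kept all 45 calls. Without a fold change threshold, members called rose from 4 to 7 between MCA943 and MCA969, from 4 to 8 between MCA948 and MCA969, and from 1 to 2 between MCA970 and MCA972, by construction. With no filter on low counts, 6 calls of Vtcn1 were added. The run as a covariate left 2 members called between MCA948 and MCA969, and within run 2 alone, with 2 MCA948 and 2 MCA969 tumors, 2 were called between MCA948 and MCA969, 3 between MCA948 and MCA970 and 2 between MCA969 and MCA970. Fewer tumors enter those fits. The index set raised the MCA970 against MCA972 count to 2, and the endothelial score lowered MCA948 against MCA970 to 3 and the letter calls within MCA948 from 1 to 0. In that letter fit 3 of 15853 genes were called, in place of 65. The cause was not tested. Leaving out each tumor in turn gave 8 to 8, 4 to 5, 5 to 6 and 7 to 7 calls for MCA943 against MCA948, MCA969, MCA970 and MCA972, 4 to 5, 4 to 5 and 2 to 2 for MCA948 against MCA969, MCA970 and MCA972, 4 to 4 and 4 to 5 for MCA969 against MCA970 and MCA972, and 1 to 1 for MCA970 against MCA972. It gave 0 to 0 for the letters, 0 to 1 for the letter effect between lines and 1 to 2 for the letter within MCA948, where 2 were called without MCA948-a-2G. The replicate block by title code gave 5 calls in place of 4 between MCA969 and MCA972 and changed no other call. Tumors with the same code in different lines did not deviate together, with correlations from -0.43 to 0.444 over 62 pairs (median 0.012). No relation to a marker score passed by Spearman's rho. Ido1, Pdcd1lg2 and Vtcn1 are limited by depth.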
